A study of Mus musculus with 2 samples.

Results

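Messenger RNAs of 41 genes that carry new proteins into the endoplasmic reticulum (ER), trim and glycosylate them there and fold them were followed in single cells of the fetal mouse pancreas. The members were taken by name, as the translocon, signal peptidase, glycosylation and ER folding genes with a column in the tables of both libraries; all 41 had one, out of 22023 genes that both tables list. The cells came from pancreata of mouse embryos at stage E15.5, either wild type (WT) or lacking Mettl3 in Pdx1+ progenitors of the pancreas (Mettl3pKO); the METTL3 protein deposits the N6-methyladenosine mark on RNA. The descriptions used here do not name the Cre line or the deleted exons, and do not say how many embryos went into a library. There was 1 library per genotype, so no difference has a replicate check and none was tested. Every interval given is a 95% interval for counting error alone.

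Proteins that are to be secreted start with a signal peptide, which the signal recognition particle binds on the ribosome and brings to its receptor in the ER membrane. The chain then passes through the Sec61 channel, helped by the translocon-associated protein (TRAP) complex; the signal peptidase complex cuts off the signal peptide, and oligosaccharyltransferase attaches glycans to asparagines. Inside the ER, protein disulfide isomerases form disulfide bonds, calreticulin and calnexin hold glycoproteins, and Hsp90- and Hsp70-type chaperones with their cochaperones help folding, until cargo receptors pass the product on to the Golgi. Acinar cells of the pancreas make digestive enzymes in large amounts and beta cells make insulin, and both are textbook examples of cells with an extensive ER. When unfolded protein accumulates, the unfolded protein response raises many of these genes through transcription factors such as Xbp1 and Atf6, and the best known DNA element through which they act is the ER stress response element (ERSE).

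That element was looked for in the members' promoters. Promoter sequence was not used to choose the genes, but many of them are known targets of the unfolded protein response. A higher share among the members is therefore no independent check. Promoter windows of 300 bases, 250 before and 50 after the start of each gene, were available from RefSeq (GRCm38.p6, the mm10 build) for 30 of the 41 members and for 27025 genes in all. ERSE, searched on both strands as CCAAT and CCACG with 9 free bases between them, was found in 6 of the 30 members (20%), against 0.137% of all genes. The 6 were Calr, Canx, Creld2, Dnajc3, Hsp90b1 and Pdia6. Copies were located only within the 250 bases before the start, where each of the 6 had at least 1 and Hsp90b1 had 2. In the 4 stretches below, written 5′ to 3′ on the gene's own strand, capitals mark the element, which reads in the opposite direction in Creld2, Hsp90b1 and Calr.
Creld2 (chr15:88819500-88819558, plus strand, 107 bases before the start): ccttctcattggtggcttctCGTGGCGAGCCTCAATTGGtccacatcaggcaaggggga
Hsp90b1 (chr10:86705513-86705571, minus strand, 88 bases before the start): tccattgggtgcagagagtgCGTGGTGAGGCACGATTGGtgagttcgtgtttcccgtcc
Pdia6 (chr12:17266471-17266529, plus strand, 79 bases before the start): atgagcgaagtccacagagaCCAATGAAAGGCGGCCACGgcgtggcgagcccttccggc
Calr (chr8:84847055-84847113, minus strand, 143 bases before the start): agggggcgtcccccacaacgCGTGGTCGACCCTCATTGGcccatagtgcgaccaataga
The variant element ERSE-II, searched as ATTGG and CCACG with 1 free base between them, was found in 1 member, Dnajb11, and in 0.0444% of all genes. The unfolded protein response element, searched as TGACGTGG, was in none of the 30 and in 0.714% of all genes. The 5 letters CCACG that end ERSE occurred in 22 of the 30 (73.3%) and in 35.5% of all genes; these counts include the ERSE and ERSE-II matches. A match describes the letters in these windows and says nothing of binding.

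The WT table held 6384 complete cells with a median of 10824 UMIs (unique molecular identifiers, each a counted RNA molecule), and that of Mettl3pKO 3624 cells with a median of 16481. No WT cell had under 3803 UMIs and no Mettl3pKO cell under 10719, and 33 cell indices occurred in both libraries. The cells were clustered without the members and without 99 other genes of the pathway, so the members had no part in defining the clusters. Classes were named from marker lists and are called X-like; 13 classes had 30 or more WT cells and 8 had as many in both libraries. Acinar-like cells numbered 1851 in WT and 2119 in Mettl3pKO, beta-like cells 247 and 166. Doublet detection did not work on Mettl3pKO, where it marked 1 of 3623 cells against 342 of 6372 in WT, so doublets may remain in Mettl3pKO. Levels are CPM, counts per 1000000 UMIs, after summing the cells of each library and class.

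Beta-like and acinar-like cells held the largest shares of the secretory machinery. In WT the 41 genes together made up 2.79% of all UMIs in beta-like cells and 2.23% in acinar-like cells. Their share was 1.84% in Fev precursor-like cells, which come before the hormone cells, and 1.59% in delta-like cells. It was 1.19% in mesenchyme-like, 0.988% in duct and trunk-like and 0.985% in alpha-like cells, and lowest in macrophage-like cells at 0.778%. Mettl3pKO had the same first 2 classes, beta-like at 2.53% and acinar-like at 1.79%. Digestive enzyme mRNA took 13.8% of acinar-like UMIs in WT and 7.76% in Mettl3pKO; with these left out of the total, the acinar-like shares were 2.59% and 1.94%. Over 6 ways of filtering cells and defining classes, the WT share ran from 2.43% to 2.80% in beta-like and from 2.22% to 2.29% in acinar-like cells. In Fev precursor-like cells it ran from 0.975% to 1.99% over the 5 ways that gave the class, so that this value depends on which cells are put in it.

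**Figure D1:**
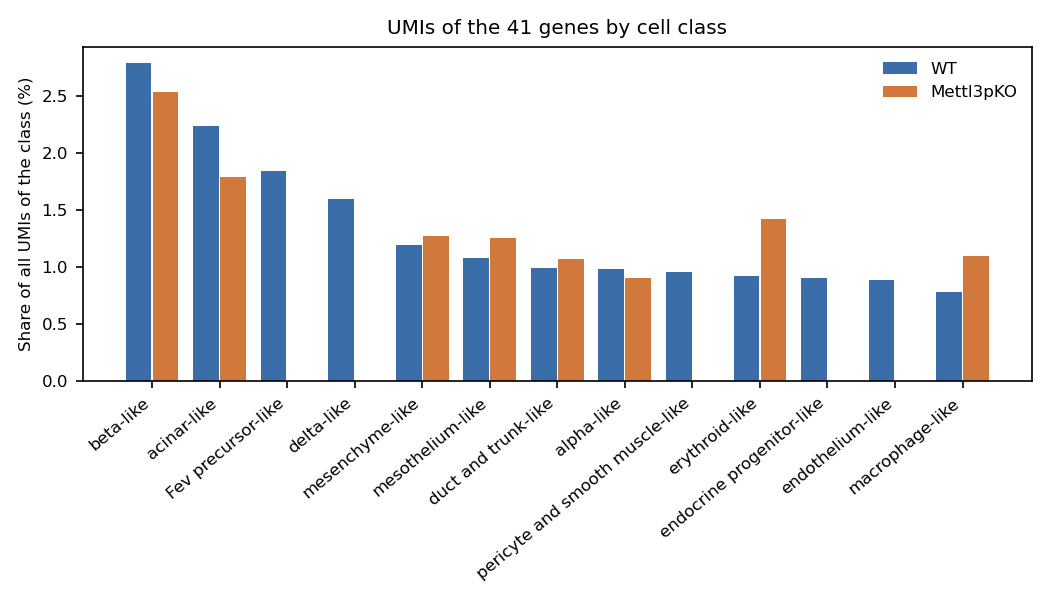
Share of all UMIs (%, vertical axis) that the 41 genes take in each cell class (horizontal axis), with WT in blue and Mettl3pKO in orange; classes with under 30 Mettl3pKO cells have a WT bar only. In WT, beta-like cells stand at 2.79% and acinar-like cells at 2.23%, and alpha-like cells at 0.985%.

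Member by member, 26 of the 41 were highest in beta-like cells and 11 in acinar-like cells among the 13 WT classes. The 11 were Sec61a1, Sec61b, Sec61g, Sec63 and Tram1 of the translocon, Ssr1, Srp9, Srp68, Sec11c, Rpn1 and P4hb. For Sec11c the acinar-like and beta-like levels were practically equal, at 309.7 and 309.6 CPM, and for Rpn1 they were close, at 344 and 328. With digestive enzymes left out of the total, 20 were highest in beta-like and 17 in acinar-like cells. P4hb, the disulfide isomerase that is also a subunit of collagen prolyl hydroxylase, stood at 1745 CPM in acinar-like, 1041 in beta-like and 453 in duct and trunk-like cells. Calr, the soluble lectin chaperone calreticulin, stood at 2093, 2939 and 912 CPM in the same order. Hsp90b1, the ER form of Hsp90, reached 4607 CPM in beta-like cells against 2066 in acinar-like and 1317 in duct and trunk-like cells. Only 4 members were highest elsewhere. Ckap4, a membrane protein that shapes ER sheets, was highest in mesenchyme-like cells at 1062 CPM and stood at 57.5 in acinar-like cells, with erythroid-like cells alone lower at 24.0. Kdelr2, a receptor that returns ER proteins from the Golgi, was also highest in mesenchyme-like cells, Sec62 in endocrine progenitor-like cells and Srp14 in Fev precursor-like cells. In Mettl3pKO, among 8 classes, 32 members were highest in beta-like, 7 in acinar-like and 2 in mesenchyme-like cells, the last again Ckap4 and Kdelr2.

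**Figure D2:**
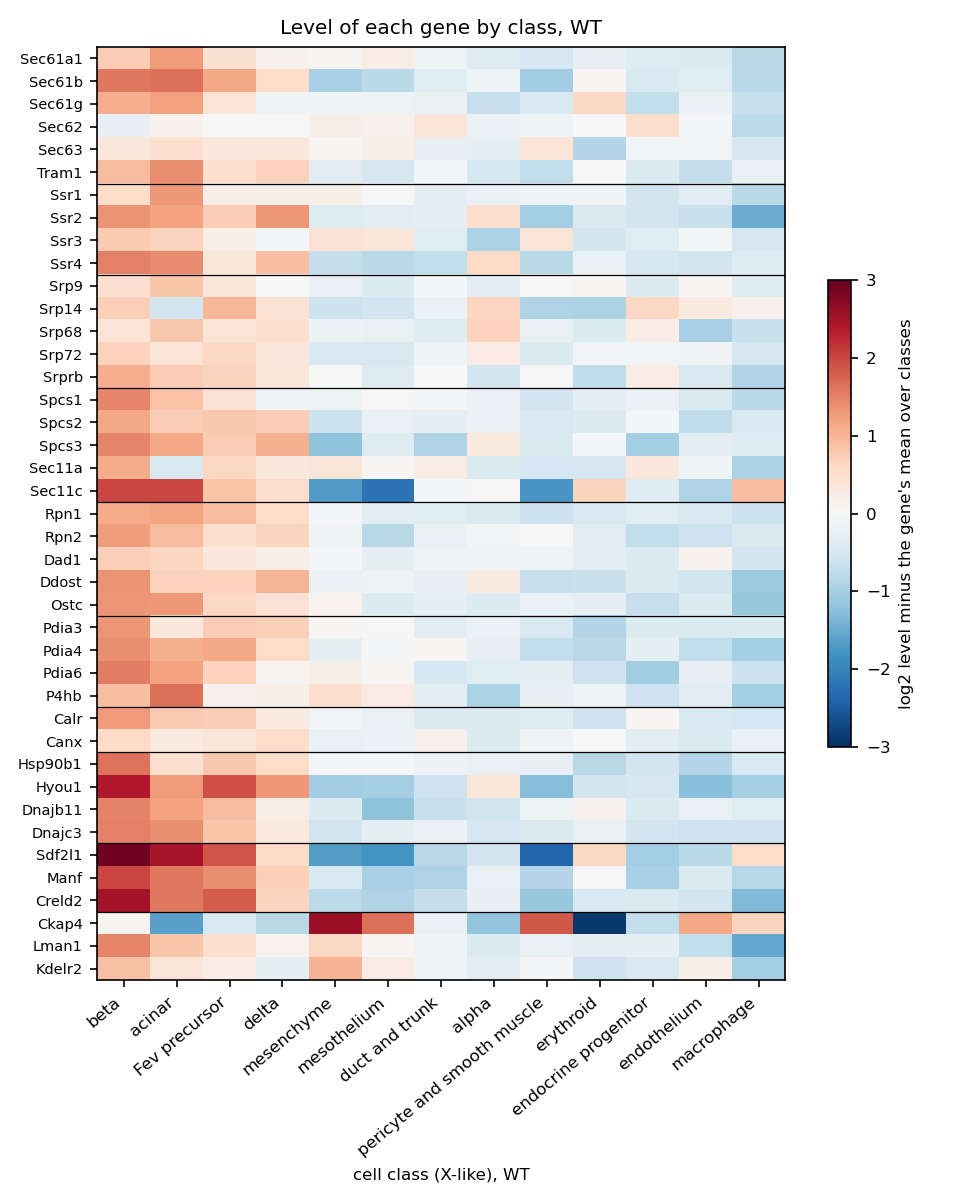
Level of each of the 41 genes (vertical axis, with lines between role groups) in the 13 WT cell classes (horizontal axis), as log2 of its level minus its own mean over the classes. The beta-like and acinar-like columns are high for most genes, whereas Ckap4 is high in mesenchyme-like and low in acinar-like cells.

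Acinar and duct cells arise from a common progenitor, and the comparison of acinar-like with duct and trunk-like cells shows how far the machinery differs between these 2 classes. In WT, 34 of the 41 members were at least 1.5-fold higher in acinar-like cells, where 13.4% of all genes tested were, and 2 were at least 1.5-fold lower, where 54.7% were. The median log2 ratio was 1.18 for the members and -0.71 for all genes. The largest ratios belonged to Sdf2l1, part of an ER chaperone complex, at 330.4 against 33.2 CPM (9.94-fold, 9.05 to 10.9), and to Manf, a secreted ER stress factor, at 777 against 138 CPM (5.64-fold, 5.38 to 5.91). Creld2, an ER stress-induced folding factor, followed at 246 against 50.4 CPM (4.89-fold), and Ssr4, the delta subunit of TRAP, at 532 against 120.01 CPM (4.43-fold). The 4 lowest ratios belonged to Ckap4 (57.5 against 153 CPM, ratio 0.376), Sec11a (77.2 against 126, 0.611), Srp14 (75.4 against 95.6, 0.788) and Sec62 (353 against 432, 0.817). Sec11a and Sec11c are alternative catalytic subunits of signal peptidase. They stood on opposite sides: Sec11c was at 309.7 CPM in acinar-like and 75.2 CPM in duct and trunk-like cells, a ratio of 4.12. In Mettl3pKO, 27 members were at least 1.5-fold higher in acinar-like than in duct and trunk-like cells (11.8% of all genes tested) and 1, Ckap4, was at least 1.5-fold lower (46.5%); the median log2 ratio was 0.77.

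Against beta-like cells the acinar-like level was mostly lower or similar. In WT, 2 members were at least 1.5-fold higher in acinar-like cells (29.7% of all genes tested) and 10 were at least 1.5-fold lower (37.5%), with a median log2 ratio of -0.29 against -0.18 over all genes. With digestive enzymes left out of the total, the median was -0.079 against 0.029 over all genes. In Mettl3pKO 1 member was higher (29% of all genes tested) and 17 were lower, a share near that of all genes tested (35.6%). The median there was lower than in WT, at -0.53 against -0.12 over all genes. With digestive enzymes left out of the total it was -0.42 against -0.0078 over all genes. In WT, 33 members were at least 1.5-fold higher in acinar-like than in alpha-like cells (23% of all genes tested) and 1 was lower (50.5%), and 30 were higher than in mesenchyme-like cells (26.1%) and 3 lower (47.7%).

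Beta-like cells held more of the machinery than alpha-like cells. Beta-like and alpha-like cells in WT were compared after the data had been seen, as 1 of 4 comparisons among endocrine classes. Of the 41 members, 37 were at least 1.5-fold higher in beta-like cells (10.5% of all genes tested) and none was as much lower (39.1%); the median log2 ratio was 1.54 against -0.40 over all genes. The summed level of the members was 2.83-fold higher (2.80 to 2.86). Sdf2l1 stood at 449.7 CPM in beta-like and 40.4 in alpha-like cells, an 11.1-fold ratio (9.51 to 13.1). Creld2 was 6.71-fold higher (464 against 69.2 CPM), Manf 4.73-fold (1054 against 223), the Hsp40 cochaperone Dnajb11 4.24-fold (236 against 55.6) and the Hsp70-type chaperone Hyou1 4.16-fold (357 against 85.7). Only Srp68 and Sec62 were below 1, with ratios of 0.828 and 0.943. The other 3 comparisons involved Fev precursor-like cells. The members' median log2 ratio was 0.89 for Fev precursor-like against endocrine progenitor-like cells, with 33 members at least 1.5-fold higher (17.8% of all genes tested) and none lower (26.4%). It was 0.53 for beta-like against Fev precursor-like cells, with 20 higher (7.03%) and none lower (35.9%). It was -0.92 for alpha-like against Fev precursor-like cells, with none higher (15.4%) and 28 lower (12.7%). All 3 depended on the cells put in the class: with each cell assigned by its own markers the medians were 0.29, 1.33 and -0.042, and with the stricter cell filter (500 or more genes, mitochondrial share up to 10%) they were 0.061, 1.38 and -0.16. The beta-like against alpha-like median ran from 1.36 to 1.93 over the settings tried.

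Within acinar-like cells, the machinery was higher in cells with more Ctrb1, the mRNA of the digestive enzyme chymotrypsinogen B. The cells of each library were ranked by Ctrb1 UMIs as a share of UMIs outside the list of digestive enzymes and split into quintiles, and CPM in this comparison leave that list out of the total, so that enzyme mRNA does not dilute the rest. From the lowest to the highest quintile, the 41 genes together took 1.96%, 2.57%, 2.81%, 3.03% and 3.19% of these UMIs in WT, and 1.56%, 1.73%, 1.88%, 2.11% and 2.53% in Mettl3pKO. Each quintile was above the one before in both libraries. Between the highest and the lowest quintile, 22 members were at least 1.5-fold higher in WT (14.5% of all genes tested) and 25 in Mettl3pKO (9.97%). At least 1.5-fold lower were 2 in WT (35% of all genes tested) and 1 in Mettl3pKO (23.1%). The median log2 ratio was 0.66 in both libraries, against -0.28 over all genes in WT and -0.20 in Mettl3pKO.

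Of the 41, 37 were above 1 in both, 20 were at least 1.5-fold higher in both, and Ckap4 was at least 1.5-fold lower in both. The share of all genes that did so in both libraries was not counted. Per library, 14.5% of all genes tested were at least 1.5-fold higher in WT and 9.97% in Mettl3pKO. In WT, Sec11c went through 187, 315, 378, 484 and 656 CPM, a 3.51-fold ratio of highest to lowest quintile (3.26 to 3.77). Ssr4 went through 355, 487, 629, 789 and 1238 (3.49-fold, 3.31 to 3.68). Both were higher at each step. Creld2 (2.42-fold) and P4hb (2.31-fold, from 1347 to 3105) came next. In Mettl3pKO the 4 highest were Sdf2l1, from 121 to 406 CPM (3.35-fold, 3.11 to 3.62), Sec11c, from 114 to 316 (2.77-fold), Creld2, from 85.5 to 235 (2.75-fold), and Ssr4, from 244 to 650.4 (2.67-fold). Sec11c, Ssr4 and Creld2 were among the 4 highest in both libraries, and P4hb, with a ratio of 1.91, was not in Mettl3pKO. The 4 lowest were Ckap4, Sec11a, Sec62 and Canx in both. Ckap4 went from 98.2 to 43.8 CPM in WT (ratio 0.446) and from 245 to 150 in Mettl3pKO (0.611). Sec11a went from 108 to 61.3 in WT (0.568) and from 94.99 to 75.0 in Mettl3pKO (0.790). Across single thinned cells the rank correlation of Sec11a with Ctrb1 was -0.092 in WT and 0.036 in Mettl3pKO, so its lower level in the highest quintile was not matched by a negative correlation in Mettl3pKO. For Sec11c it was 0.53 and 0.43. Sec62, with ratios of 0.991 and 0.993, and the membrane-bound lectin chaperone Canx, with 0.989 and 1.03, differed little between the end quintiles.

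**Figure D3:**
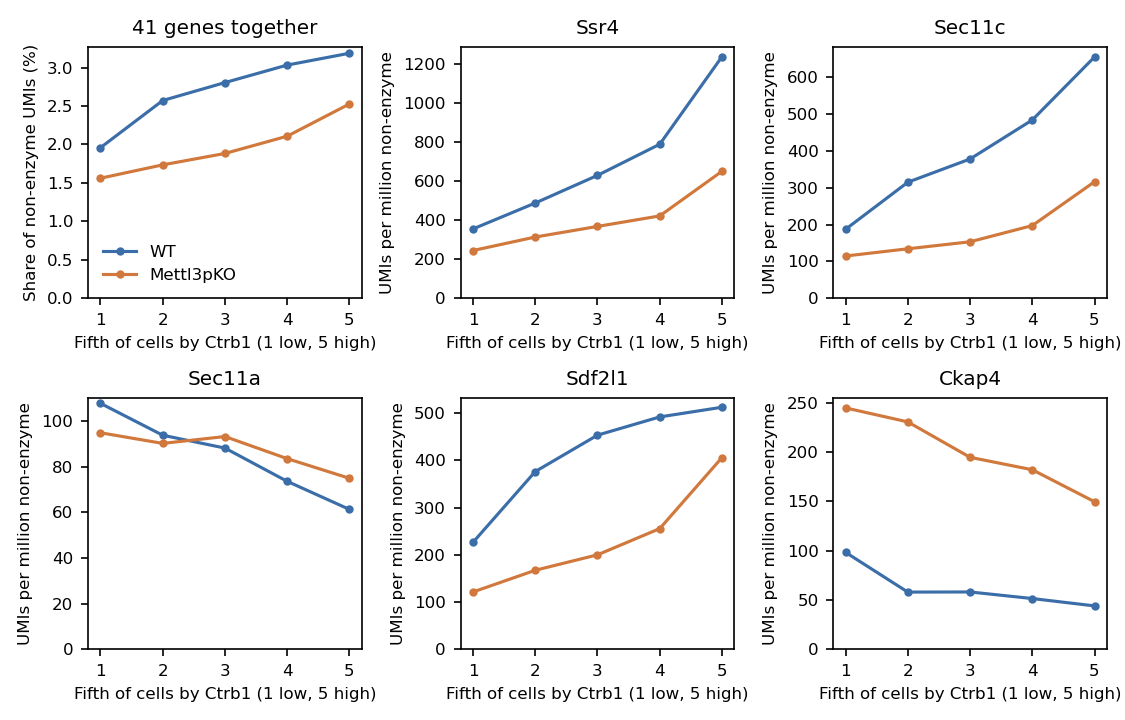
Share of UMIs outside the enzyme list (%, first panel, the 41 genes together) and CPM outside that list for 5 members (other panels), by quintile of acinar-like cells ranked by Ctrb1 (horizontal axis, 1 lowest and 5 highest), WT in blue and Mettl3pKO in orange. The 41 genes together, Ssr4, Sec11c and Sdf2l1 are higher in the last than in the first quintile in both libraries, and Sec11a and Ckap4 end lower than they start.

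By role, the folding factors Sdf2l1, Manf and Creld2 had the highest group median along Ctrb1 in both libraries, with log2 ratios of 1.18 in WT and 1.46 in Mettl3pKO. The translocon genes had 0.80 and 0.74, oligosaccharyltransferase 0.74 and 0.59, and the signal recognition particle and its receptor 0.38 and 0.51. Other genes of the pathway moved similarly. At least 1.5-fold higher in the highest WT quintile were 15 of 38 other ER translocation and folding genes, 11 of 18 ER-associated degradation genes, 11 of 29 ER to Golgi transport genes and 5 of 14 genes of the unfolded protein response, with 1 lower in each list, beside 14.5% of all genes tested higher and 35% lower. In Mettl3pKO the counts of higher genes were 14, 12, 13 and 4, beside 9.97% of all genes tested. With every cell cut down at random to 7810 UMIs, the rank correlation across cells between Ctrb1 and the members' summed share was 0.622 over 1719 WT cells, with 132 too shallow to thin, and 0.610 over 2119 Mettl3pKO cells. These points share a library and are not replicates.

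Other measures moved along Ctrb1 too. In WT the median depth went from 18051 UMIs in the lowest quintile to 10240 in the highest, and the share of proliferating cells from 91.4% to 30.3%. In Mettl3pKO that share went from 92.0% to 71.2%. The median mitochondrial share went from 9.10% to 4.40% in WT and from 11.8% to 8.30% in Mettl3pKO. Among WT cells with under 2 proliferation UMIs the members' median log2 ratio was 0.29, and in Mettl3pKO 0.73. With all UMIs as the total it was 0.22 in WT and 0.43 in Mettl3pKO. The part of proliferation in the result was otherwise not tested.

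The question of the study's design is what differs where Mettl3 is lacking. Mettl3 itself had 9.29 CPM in WT and 7.22 CPM in Mettl3pKO acinar-like cells, a ratio of 0.777 (0.654 to 0.923). This is no check of the deletion itself, since UMIs can come from parts of the gene that are left. Pooled over all acinar-like cells, the secretory machinery was lower in sum in Mettl3pKO, though not for every member. The difference depended on the cluster: within single acinar-like clusters the members' median log2 ratio ran from -0.31 to 0.019. The 41 genes summed to 22316 CPM in WT and 17853 CPM in Mettl3pKO, a ratio of 0.80001 (0.797 to 0.803), and 36 of them had a ratio below 1. At least 1.5-fold lower were 6 members, where 8.83% of all genes tested were, and 1 was at least 1.5-fold higher, where 20.8% were. The median log2 ratio was -0.32 for the members and 0.17 for all genes.

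Ckap4 stood apart from the other members. It stood at 57.5 CPM in WT (54.7 to 60.4) and at 187 CPM in Mettl3pKO, a ratio of 3.25 (3.08 to 3.44). Of the mesenchyme markers, whose own class has the most Ckap4, 13 of 15 were measured in acinar-like cells. Of these, 1 was at least 1.5-fold higher and none lower, and they summed to 217 CPM in WT and 225 CPM in Mettl3pKO. Whether mesenchyme RNA has a part in the Ckap4 ratio was not tested. Sec11c was among the lowest, at 309.7 CPM in WT and 163 in Mettl3pKO (0.527, 0.510 to 0.544), beside Creld2, at 246 and 129.9 CPM (0.527, 0.508 to 0.547). Sdf2l1 stood at 330.4 and 205 CPM (0.619) and Hyou1 at 162 and 103 (0.640). Ostc and Dad1, small subunits of oligosaccharyltransferase, stood at 609.7 and 397 CPM (0.651) and at 302 and 199.6 CPM (0.660). Just inside the 1.5-fold limit were Ssr4, at 532 and 358 CPM (0.673), and on the upper side Sec62, a translocon partner that also serves ER turnover, at 353 and 455 CPM (1.29).

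Nearly all role groups were lower in sum, with ratios that differed within each group. The translocon genes summed to a ratio of 0.792, from 0.695 for Sec63 to 1.29 for Sec62. The TRAP complex had 0.840, from 0.673 for Ssr4 to 0.975 for Ssr2 (1062 and 1035 CPM). The signal recognition particle and receptor had 0.897, from 0.823 for Srp72 to 1.03 for Srp9. Signal peptidase had 0.731, from 0.527 for Sec11c to 1.05 for Sec11a, whose interval (0.996 to 1.11) includes 1. Oligosaccharyltransferase had 0.812, from 0.651 for Ostc to 0.996 for Ddost. Disulfide isomerases had 0.852, from 0.791 for P4hb (1745 and 1379.8 CPM) to 1.09 for Pdia4 (275 and 301). The lectin chaperones had 0.774, with 0.742 for Calr and 0.868 for Canx. The Hsp90 and Hsp70 group had 0.739, from 0.640 for Hyou1 to 0.7996 for Dnajc3, an Hsp40 cochaperone. The 3 folding factors had the lowest ratio of sums, 0.674, from 0.527 for Creld2 to 0.744 for Manf. In the ER sheet and cargo group, at 1.07, the cargo receptor Lman1 had 0.843, Kdelr2 0.851 and Ckap4 3.25.

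**Figure D4:**
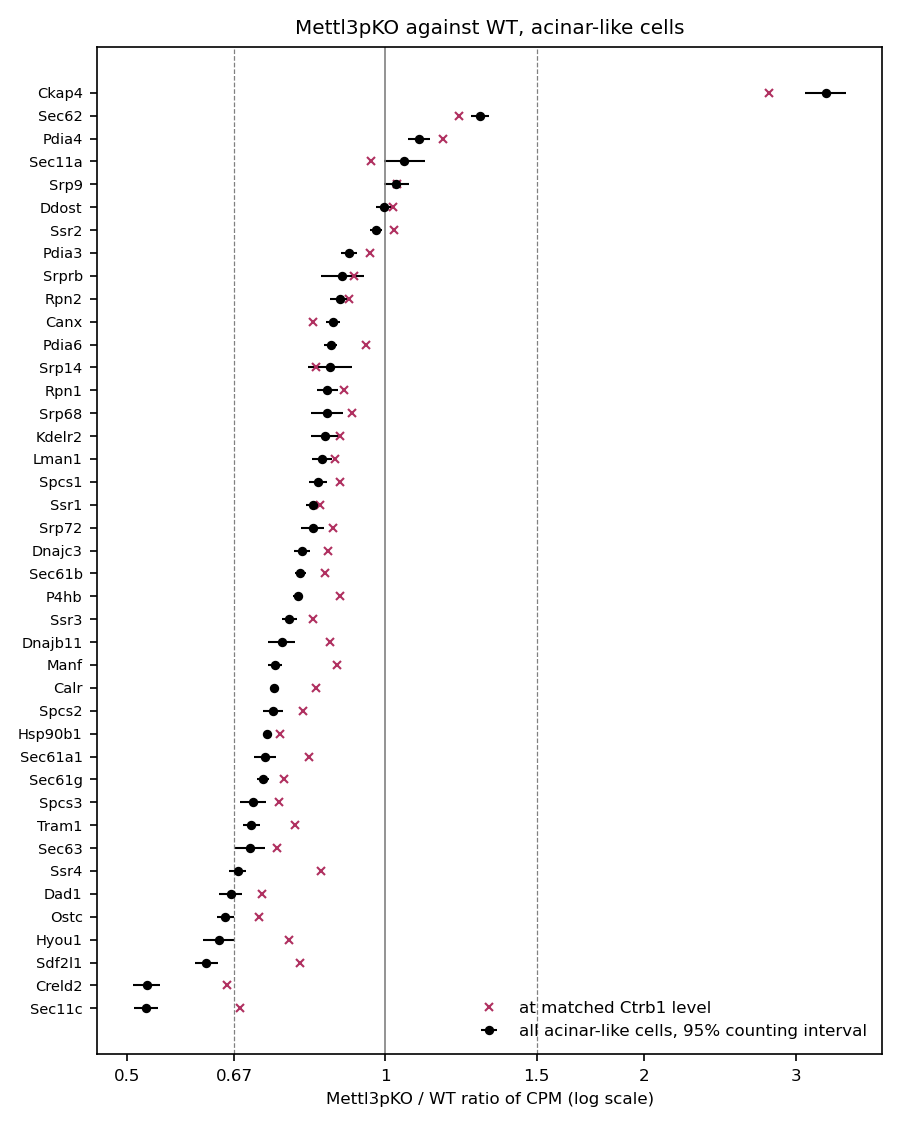
Mettl3pKO to WT ratio of CPM (horizontal axis, log scale) for each of the 41 genes (vertical axis) in acinar-like cells; black points are all acinar-like cells with 95% counting intervals, crosses the mean over 5 bins of matched Ctrb1 level, and dashed lines the 1.5-fold limits. Ckap4 stands at 3.25 and Sec11c and Creld2 at 0.527; at matched Ctrb1 the crosses of Hyou1, Sdf2l1, Creld2 and Sec11c lie nearer 1.

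The acinar-like cells of the libraries differed in more than genotype. Ctrb1 stood at 51923 CPM in WT and 28297 CPM in Mettl3pKO, and 29 of 43 digestive enzymes were at least 1.5-fold lower (median log2 ratio -1.07). Of 13 mitochondrial transcripts 10 were at least 1.5-fold higher, as were 10 of 24 dissociation stress genes and 4 of 9 proliferation genes. Cells with Xist and no Y-linked UMI made up 73.9% of WT and 20.5% of Mettl3pKO acinar-like cells and those with Y-linked UMIs alone 9.18% and 51.9%. Of the members named here, Ssr4 lies on the X chromosome. Among cells with Xist and no Y-linked UMI the members' median log2 ratio was -0.36, with 9 members at least 1.5-fold lower. Among those with Y-linked UMIs but without Xist it was -0.17 with 2 lower. The shares of all genes in these subsets were not set beside these counts. The 2 libraries also filled different acinar-like clusters. In WT 31.2% of the cells were in a cluster led by Try10 and Aqp8 and 16.6% in one led by Gm10334 and Prss3, which held 3.30% and 1.42% in Mettl3pKO. There, 36.2% were in a proliferating cluster led by Ube2c and 31.2% in one led by Serpina6 and Vtn, which held 9.29% and 3.19% in WT. With the 7 clusters weighted equally, the members' median was -0.13 and no member was at least 1.5-fold lower. Within single clusters the median ran from -0.31 to 0.019. Ckap4 was above 1 in 7 of 7 clusters (1.07 to 2.94), Sec11c ran from 0.621 to 1.06 and Creld2 from 0.564 to 1.06. Ckap4 was highest in the Serpina6 and Vtn cluster, at 255 CPM in WT and 273 in Mettl3pKO (1.07, 0.940 to 1.23). In the Gm10334 and Prss3 cluster its ratio was 1.14 (0.654 to 1.88), and both intervals include 1. The part of cluster make-up in the Ckap4 ratio over all acinar-like cells was not tested. Over 12 settings of filters, doublets, classes and cell subsets, Sec11c and Creld2 were at least 1.5-fold lower and Ckap4 higher in all 12. Dad1 was lower in 10, and Ostc, Hyou1 and Sdf2l1 in 9. The 12 include the main setting and 2 that repeat its ratios. These 2 are no filter on low counts and centring on all genes, for which single ratios were not shifted. Left out are equal cluster weights, under which no member was at least 1.5-fold lower, and matched Ctrb1 (below), where Sec11c was at 0.677.

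Since most members were higher in cells with more Ctrb1, and Ctrb1 was lower in Mettl3pKO, the genotypes were also compared among acinar-like cells of like Ctrb1 level, in 5 bins with edges at the WT quintiles, each weighted equally. The difference was smaller but of the same direction for most members. The members' median log2 ratio was -0.22 against 0.045 over all genes. Creld2 was the only member at least 1.5-fold lower, at a ratio of 0.655 (8.48% of all genes tested were as much lower), and Ckap4 the only one at least 1.5-fold higher, at 2.79 (14.9%). Ckap4 was above 1 in 5 of 5 bins. Sec11c, at 0.677, and Creld2 were below 1 in each of the 5. Ssr4 moved from 0.673 to 0.841 and Sdf2l1 from 0.619 to 0.795, and Ostc and Dad1 were at 0.712 and 0.719. Pdia4 (1.17) and Sec62 (1.22) were above 1 in 5 of 5 bins. The lowest bin is not fully matched, with a median Ctrb1 share of 1.72% in WT and 1.18% in Mettl3pKO, and 1260 of the Mettl3pKO cells fell in it. Where Y-linked UMIs but no Xist were seen, the matched median was -0.087.

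In duct and trunk-like cells the members were, in sum, not lower in Mettl3pKO. They summed to 9878 CPM in WT and 10695 CPM in Mettl3pKO, a ratio of 1.08 (1.07 to 1.09), with a median log2 ratio of 0.13 against 0.015 over all genes. At least 1.5-fold higher were 4 members, a share near that of all genes tested (11.9%), and none was as much lower (8.9%). The 4 were Ckap4 (153 and 322 CPM, ratio 2.11, 1.99 to 2.24), Manf (138 and 228, 1.66), Dnajb11 (53.0 and 83.2, 1.57) and Sdf2l1 (33.2 and 51.1, 1.54). The lowest ratios belonged to Srp14 (0.796), Dad1 (0.799), Hsp90b1 (0.843) and Srp72 (0.886). Digestive enzyme mRNA moved with them: 25 of 33 enzymes measured were at least 1.5-fold higher there in Mettl3pKO, and Ctrb1 stood at 1220.2 and 4739 CPM. The part of acinar RNA in the members' levels was not tested. The largest share of WT cells of the class was in a cluster led by Spp1 (47.2%) and that of Mettl3pKO cells in one led by Onecut2 (61.1%). The direction of the median turned under 3 other settings, at -0.029 to -0.0085.

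**Figure D5:**
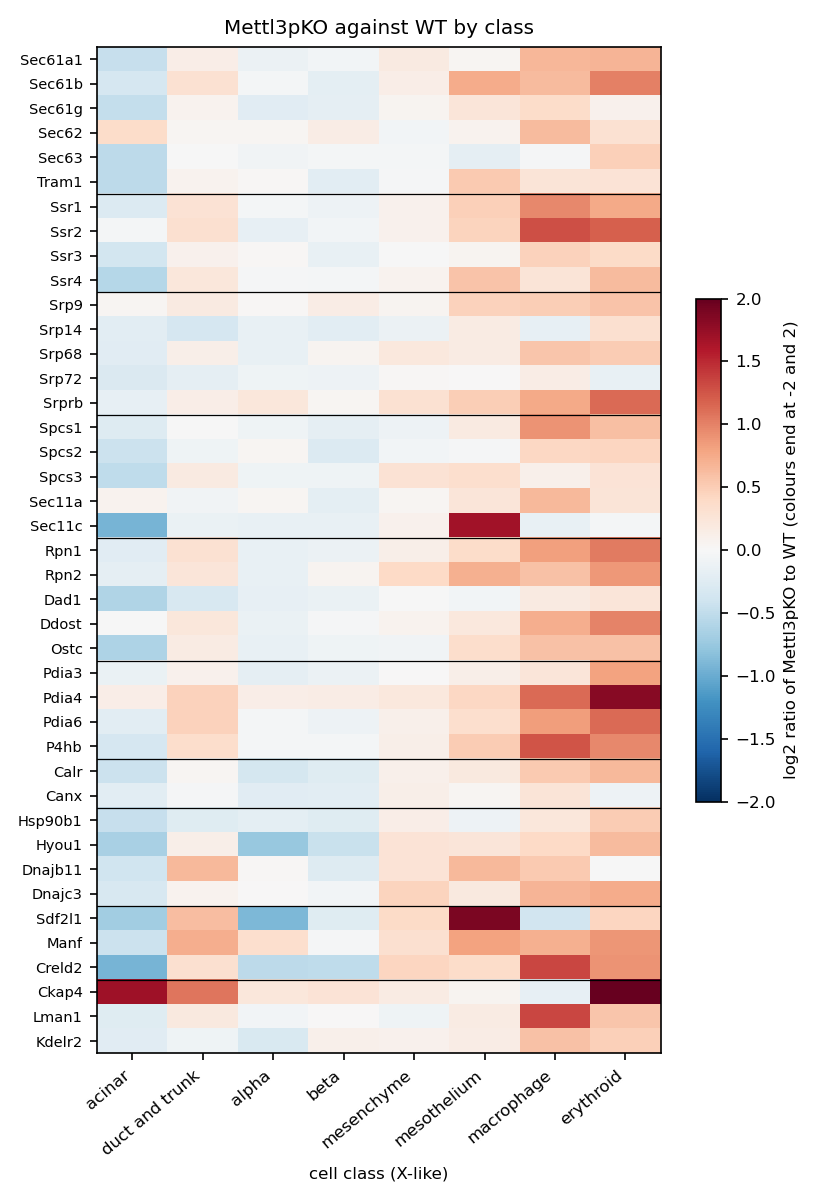
Log2 ratio of Mettl3pKO to WT for each of the 41 genes (vertical axis, with lines between role groups) in the 8 classes of at least 30 cells per library (horizontal axis); colours end at -2 and 2. Most genes are below 0 in acinar-like cells and above 0 in macrophage-like and erythroid-like cells, and Ckap4 is highest in the acinar-like, duct and trunk-like and erythroid-like columns.

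In the hormone cells and the mesenchyme the differences were small. In alpha-like cells the median log2 ratio was -0.084, with no member at least 1.5-fold higher (6.13%) and 2 as much lower (6.09% of all genes tested): Sdf2l1, at 40.4 and 21.4 CPM (0.530, 0.366 to 0.752), and Hyou1, at 85.7 and 50.3 CPM (0.587, 0.463 to 0.738). Creld2 was next at 0.696, then Calr at 0.785, and Manf was highest at 1.26. Markers of other cells also differed there: 5 of 7 epsilon cell markers measured were at least 1.5-fold lower in Mettl3pKO, with sums of 2531 and 600.4 CPM, as were 6 of 6 erythroid markers, with sums of 5003 and 756 CPM. Their part in the members' levels was not tested. In beta-like cells the median was -0.10 and no member passed 1.5-fold either way (13.2% of all genes tested were higher and 4.37% lower). The lowest there were Creld2 (464 and 327 CPM, 0.704), Hyou1 (357 and 263, 0.738), Hsp90b1 (0.843) and Calr (0.847), and the highest Ckap4 (188 and 227, 1.21), Pdia4 (1.11) and Sec62 (1.11). In beta-like cells 9 of 9 proliferation genes were at least 1.5-fold higher in Mettl3pKO, as were 11 of 11 mesenchyme markers measured, which summed to 182 and 2781 CPM; their part in the members' levels was not tested. In mesenchyme-like cells, where the labels place no deletion, the median was 0.092 and again no member passed 1.5-fold (7.4% higher, 5.84% lower); Dnajc3 was highest, at 152 and 208 CPM (1.37), then Creld2 (1.35), Rpn2 (1.31) and Manf (1.25). The class was made up of different clusters in each library: one led by Ogn held 494 of 774 WT and 78 of 231 Mettl3pKO cells, and a cycling one 280 and 153, and proliferating cells were 54.1% and 85.3%. Ckap4 stood there at 1062 and 1194 CPM. The sign of the alpha-like and beta-like medians turned under other settings.

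In the smaller non-epithelial classes the members summed to a higher level in Mettl3pKO, and Ctrb1 was higher too. In mesothelium-like cells the ratio of sums was 1.16 (1.14 to 1.19), and 6 members were at least 1.5-fold higher, a share near that of all genes tested (14.2%), led by Sdf2l1 (17.0 and 63.1 CPM, 3.71) and Sec11c (16.5 and 53.3, 3.23), then Manf (1.75) and Sec61b (1.68), while Ctrb1 stood at 576 and 6669 CPM. Macrophage-like cells had a ratio of sums of 1.41 (1.37 to 1.46) and 17 members higher (19.5%), led by Creld2 (2.54), Lman1 (2.53), Ssr2 (2.45) and P4hb (2.39), while Ctrb1 stood at 472 and 6655 CPM. Erythroid-like cells had a ratio of sums of 1.53 (1.4997 to 1.57) and 21 members higher (28%), led by Ckap4 (24.0 and 178 CPM, 7.43, 5.22 to 10.8) and Pdia4 (73.7 and 259.7, 3.52), while Ctrb1 stood at 12144 and 18385 CPM. Of the erythroid-like cells, 69 of 121 in WT but 2 of 51 in Mettl3pKO were in a cluster led by Car2 and Slc4a1, and the others in one led by Alas2. In all 3 classes none was at least 1.5-fold lower (12.9%, 12.5% and 26.1% of all genes tested). These cells do not make digestive enzymes, and the part of acinar RNA or of doublets in their members' levels was not tested.

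Other genes of the pathway were compared in acinar-like cells, where 20.8% of all genes tested were at least 1.5-fold higher in Mettl3pKO and 8.83% lower; the counts of lower genes in the first list and of higher genes in the last are near these shares. Of 38 other ER translocation and folding genes measured, 1 was at least 1.5-fold higher and 4 lower (median log2 ratio -0.12). Pdia2, a disulfide isomerase of the pancreas, had 77.0 CPM in WT against 16.0 in Mettl3pKO (0.207), Fkbp11, a prolyl isomerase of secretory cells, had 608 and 271 (0.445), and Srpr, the other subunit of the signal recognition particle receptor, had 378 and 248 (0.656). The exception above was Tram2, at 2.75 and 4.54 CPM (1.65). Of 18 ER-associated degradation genes 1 was higher and 4 lower (-0.14), with Derl3 at 55.7 and 15.3 CPM (0.274), Selenos at 302 and 187 (0.621), Erlec1 at 0.644 and Sel1l, the partner of the ubiquitin ligase Hrd1, at 516 and 813 (1.58). Of 29 ER to Golgi transport genes 1 was higher and 5 lower (-0.35), with Yif1a (0.501), Cope (0.555), Sec31a (0.618) and Tmed3 (0.626) the lowest. Of 14 genes that sense or carry out the unfolded protein response, none was at least 1.5-fold lower and 3 were higher (median log2 ratio 0.048). They were Chac1, an enzyme that degrades glutathione (4.92 and 16.2 CPM, 3.30), Trib3, a pseudokinase (4.08 and 6.87, 1.69), and Atf3, a transcription factor (150.0 and 238, 1.59). Atf3 is also among the dissociation stress genes. Hspa5, the main Hsp70 chaperone of the ER, and Xbp1 fall outside the rule for naming genes and were looked at because they are central to this response. They stood at 2568 and 3128 CPM (1.22) and at 777 and 984 CPM (1.27), on the other side of 1 from most members.

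In the mm10 build with GENCODE vM21 models, Ckap4 lies at chr10:84526305-84534062 on the minus strand and Creld2 at chr15:88819646-88826683 on the plus strand, neither overlapping another gene. Sdf2l1 (chr16:17130138-17132383, minus strand), Hyou1 (chr9:44379490-44392369, plus strand) and Dad1 (chr14:54235479-54254104, minus strand) also stand alone. Of the 41 members, 20 overlap another annotated gene and 9 a protein-coding one: Srprb, Spcs1, Spcs2, Spcs3, Sec11a, Rpn2, Pdia3, Pdia6 and Manf. The use of strand in the counting was not given in the sources used here, which leaves the values of these 9 uncertain. For Srprb, Sec11a and Manf a protein-coding overlap lies on the same strand, so their uncertainty does not depend on strand use alone.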

How the data were processed

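Single-cell RNA of mouse pancreas was read with BD Rhapsody whole-transcriptome chemistry. The deposited tables hold UMI counts in whole numbers for every cell and gene, made by the authors with the BD Rhapsody WTA analysis pipeline 1.8, per the file headers; mm10 and Seurat are named in the submitters' processing notes. Whether UMI errors were corrected was not given in the sources used here. Each table ended in 1 incomplete cell, which was left out.

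From these counts, cells of 200 or more genes with a mitochondrial share up to 25% were kept, marked doublets were removed, and 9652 cells were clustered with scanpy 1.11.5 (2000 variable genes, 30 principal components, 15 neighbours, resolution 1; members and 99 pathway genes left out). A cluster was named from at least 3 detected markers. UMIs were summed per library and class and given as CPM, with exact Poisson intervals; ratios have exact conditional binomial intervals (scipy 1.17.1). Before taking log2, 0.5 UMIs were added. Genes with at least 20 UMIs over both groups were counted, and all 41 members passed this in every comparison. Proliferating cells are those with 2 or more UMIs among 9 genes. The calculations were tested on simulated data.

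Named were, in acinar-like cells, the members past 1.5-fold, the nearest inside that limit and the extremes of each role group; in other classes and by class level up to 4 highest and 4 lowest; against Ctrb1 the 4 highest and 4 lowest per library; and 2 to 4 genes per pathway list. The members and lists were chosen with earlier results of these data known. Alternatives changed cell filters, doublets, classes, denominators, scaling and cell subsets.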

Additional observations from a re-analysis of the deposited data

Results flagged for a closer look

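For 5 members the Mettl3pKO to WT log2 ratio was of opposite sign, and past 1.5-fold, in 2 cell classes. The share of all genes that met this rule was not counted, so the count of 5 is no result about the members. In erythroid-like cells alone, 28% of all genes tested were at least 1.5-fold higher and 26.1% lower. These differences between classes were not tested, since each genotype has 1 library. Sec11c was at -0.93 in acinar-like cells and 1.68 in mesothelium-like cells, the latter from 33 and 65 UMIs. Creld2 was at -0.92 in acinar-like cells and 1.34 in macrophage-like cells, and Ostc at -0.62 in acinar-like cells and 0.59 in erythroid-like cells. Sdf2l1 was at -0.90 in alpha-like cells and 1.88 in mesothelium-like cells, and Hyou1 at -0.76 in alpha-like cells and 0.63 in erythroid-like cells. Each positive value is in a class where Ctrb1 was also higher in Mettl3pKO, at 576 and 6669 CPM in mesothelium-like, 472 and 6655 in macrophage-like and 12144 and 18385 in erythroid-like cells; its part in these values was not tested. The mesothelium-like, erythroid-like and macrophage-like values rest on few cells, macrophage-like on the fewest, 92 in WT and 48 in Mettl3pKO. The erythroid-like class was made up of different clusters in each library. The leading genes of the macrophage-like cluster included S100a8, S100a9 and Ngp, which are on the marker list for mast cells and granulocytes.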

How the results depend on the processing

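Of 150 values recomputed under other settings, 99 stayed within the reported value's counting range or 1.5 times the count, 43 moved and 8 turned in sign; the causes were not tested. The turned medians were small. Duct and trunk-like cells gave -0.029 with the stricter cell filter, -0.028 with doublets kept and -0.0085 with members used in clustering. Alpha-like cells gave 0.16 with the stricter filter, 0.042 in cells of 13000 UMIs or more and 0.020 with classes by each cell's own markers. Beta-like cells gave 0.11 with doublets kept and 0.010 with own markers.

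The acinar-like median was -0.24 with the stricter filter, -0.49 centred on all genes, -0.24 in cells with under 2 proliferation UMIs, -0.36 in Xist-only and -0.17 in Y-only cells, -0.37 without enzyme and mitochondrial UMIs in the total and -0.13 with clusters weighted equally. Members at least 1.5-fold lower there numbered 2 with the stricter filter, 16 centred, 2 in Y-only cells, 0 with clusters weighted equally and 0 at 2-fold. The share of all genes was not set beside these counts. That of the main setting, 8.83%, does not apply to them. The acinar-like against duct and trunk-like median was 1.89 centred and 1.38 without enzyme and mitochondrial UMIs. Along Ctrb1 the WT median was 0.47 with the stricter filter, 0.95 centred, 0.29 in cells with under 2 proliferation UMIs, 0.51 in Y-only cells, 0.22 over all UMIs, 0.54 ranked by Cela1 and 0.80 between end deciles. The Mettl3pKO median was 0.86 centred, 0.73 in cells with under 2 proliferation UMIs, 0.81 in Xist-only and 0.59 in Y-only cells, 0.43 over all UMIs, 0.41 ranked by Cela1 and 0.80 between end deciles. At matched Ctrb1 it was -0.19 with the stricter filter, -0.27 centred and -0.087 in Y-only cells.

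Beta-like against alpha-like cells gave 1.36 with doublets kept and 1.93 centred. Fev precursor-like against endocrine progenitor-like cells gave 0.061 with the stricter filter and 0.29 with own markers. Beta-like against Fev precursor-like cells gave 1.38, 1.33, 0.45 in cells of 13000 UMIs or more and 0.92 centred. Alpha-like against Fev precursor-like cells gave -0.16, -0.042, -1.03 with members used in clustering and -1.16 in cells of 13000 UMIs or more. With doublets kept no Fev precursor-like class formed. Equal cluster weights, the top 5% of doublet scores and the endocrine comparisons were chosen after seeing the data. No paired analysis was possible because each genotype has 1 library, so leaving out a replicate was not possible either.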
